A study of Homo sapiens with 9 samples.

Results

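ZBED2 and 8 interferon genes were described in SW480 colorectal carcinoma cells and in lines grown from single cells of them. ZBED2, a zinc finger gene reported to antagonise IRF1 at interferon-responsive promoters, had its highest signal in the highly metastatic line SCP51, an intermediate one in the parent and its lowest in the poorly metastatic line SCP58. IFIT1, which encodes an antiviral protein that binds foreign RNA, was highest in SCP58. The members were taken by name: the transcription factor genes IRF1, IRF9 and STAT2 and the response genes IFIT1, IFIT3, ISG15, OAS1 and MX1 stood beside ZBED2, and every probe set annotated to exactly 1 of these symbols was used. Of these 9 genes, 8 had such a probe set (11 probe sets in all), and 7 passed the filter on low signal, among 13598 genes that were tested in all. STAT2 was not analysed here. The set was selected on the log2 signals of the 3 groups, in which ZBED2 stood out by its wide range, so the signals and differences of its members are a description and carry no p-value. Where a member is said to pass an adjusted limit, that gives its place in the fit to all genes and is no test of it.

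The tested lines were SCP51, classed as highly metastatic, and SCP58, classed as poorly metastatic in a mouse model of colorectal cancer with tumours placed orthotopically, and both were set against the parent SW480/EGFP. All 3 groups descend from SW480, a human colon adenocarcinoma line, and carry EGFP. Each had 3 arrays labelled as biological replicates. How far apart the replicate cultures were kept is not given in the sources used here, so the errors cover the spread between these arrays. Each metastatic class is 1 clone, and no interferon treatment is named for any group.

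Type I interferons bind receptors coupled to JAK kinases, which activate the complex ISGF3, of which STAT2 and IRF9 are subunits. ISGF3 binds the interferon-stimulated response element and turns on antiviral genes, while interferon gamma induces IRF1, which binds closely related elements. In unstimulated epithelial cells many of these genes keep a low basal level. ZBED2 belongs to a family of genes derived from DNA transposons. In human pancreatic cancer cells its product has been reported to occupy promoters bound by IRF1 and to lower their activity.

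To show what these promoters hold, the 250 bases before each start in the RefSeq table (build GRCh38.p14) were searched on both strands for the core of the response element, which is GAAA followed after any 2 bases by GAAA. All 9 member genes had an entry, with 12 starts in all. IFIT1, IFIT3, ISG15 and MX1 held the core in 5 of these 12 windows, or 41.7%, against 3.02% of all 35116 windows of that length. The following stretches, read on the gene's strand with each match in capitals, come from 3 of these genes and are all of RefSeq. In IFIT1 and IFIT3 the match reads as the reverse complement.
IFIT1 (GRCh38.p14, chr10:89392492-89392544, plus strand): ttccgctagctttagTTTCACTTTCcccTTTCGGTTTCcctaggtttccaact
IFIT3 (GRCh38.p14, chr10:89327826-89327899, plus strand): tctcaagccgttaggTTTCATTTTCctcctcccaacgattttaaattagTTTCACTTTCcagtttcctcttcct
ISG15 (GRCh38.p14, chr1:1013369-1013414, plus strand): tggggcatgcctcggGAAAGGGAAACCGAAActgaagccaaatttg
The matches began 116 and 103 bases before the start of IFIT1, and 113 and 107 bases before that of ISG15, where both overlap. A further start of IFIT3 also held 2 matches. IFIT1 and IFIT3 thus shared the core, and both lie in the IFIT gene cluster on chromosome 10.

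ZBED2 and IRF1 had no such core in their windows. IRF1 held the palindromic core of the interferon gamma-activated site, TTC followed after any 3 bases by GAA, which 6.57% of all windows hold and which reads the same on both strands. It began 124 bases before the start of IRF1, and IRF9, OAS1 and 1 window of MX1 also held it; in MX1 it overlapped the other motif. The IRF1 stretch is shown for that match and the ZBED2 window whole, as that of the member with the widest range. A match describes letters only.
IRF1 (GRCh38.p14, chr5:132490874-132490912, minus strand): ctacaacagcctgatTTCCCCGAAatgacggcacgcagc
ZBED2 (GRCh38.p14, chr3:111595347-111595596, minus strand): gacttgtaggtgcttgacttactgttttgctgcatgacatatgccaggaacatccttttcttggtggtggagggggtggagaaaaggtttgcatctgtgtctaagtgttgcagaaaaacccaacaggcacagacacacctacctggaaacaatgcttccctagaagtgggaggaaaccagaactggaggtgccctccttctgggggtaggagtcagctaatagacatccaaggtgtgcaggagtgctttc

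Signals are the deposited intensities on a linear scale, and array medians lay between 41.1 and 44.3. SCP51 replicate 1 stood apart, with correlations across genes of 0.891 to 0.911 with the other arrays, against 0.945 to 0.979 in the 28 pairs among the other 8. Of 10 colorectal epithelial markers, 8 lay above the array median on all 9 arrays, among them EPCAM, KRT8, KRT18 and KRT19, while LGALS4 lay above it on none. Among 14 markers of other cell types, CD3E, COL1A1 and VWF lay above the array median on all 9 arrays, DCN on 8, PECAM1 on 6, and KDR and PDGFRB on 2 each, while PTPRC, CD14, LYZ, COL1A2, COL3A1, LUM and CDH5 lay under it on every array. The summed signal of the 4 leukocyte markers measured was 125 to 150 in SCP51, 135 to 153 in SCP58 and 140 to 161 in the parent.

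The signal of ZBED2 (probe set 219836_at) was 366, 792 and 674 on the 3 SCP51 arrays, 17.6, 22.5 and 20.0 on the SCP58 arrays, and 209, 166 and 200 on the parent arrays. The 3 groups did not overlap, and all SCP58 arrays lay under the array median. Each signal is a mean over a culture, so fewer cells with the transcript and less of it per cell cannot be told apart. The log2 difference was 4.86 ± 0.27 between SCP51 and SCP58 (SE, n = 3 per group), 1.61 ± 0.27 between SCP51 and the parent and -3.26 ± 0.27 between SCP58 and the parent. Both differences from SCP58 are taken against these dim signals, so their size depends on how low values are treated. The SCP51 array that stood apart had the lowest ZBED2 signal of its line, and without it the difference from the parent was larger, at 1.94. Over 19 alternatives of processing the difference between SCP51 and SCP58 ran between 3.56, with 32 added before log2, and 5.20. That between SCP51 and the parent ran from 1.38 to 1.94, and that between SCP58 and the parent from -3.36 to -2.10, where -2.10 was the value with 32 added. ZBED2 did not pass the adjusted limit against the parent without SCP51 replicate 2 (1.38), or without parent replicate 1 (1.67), 2 (1.51) or 3 (1.64), nor in a fit to the 6 arrays of these groups alone. Between SCP58 and the parent it did not pass without parent replicate 1 (-3.19), where no gene did.

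**Figure D1:**
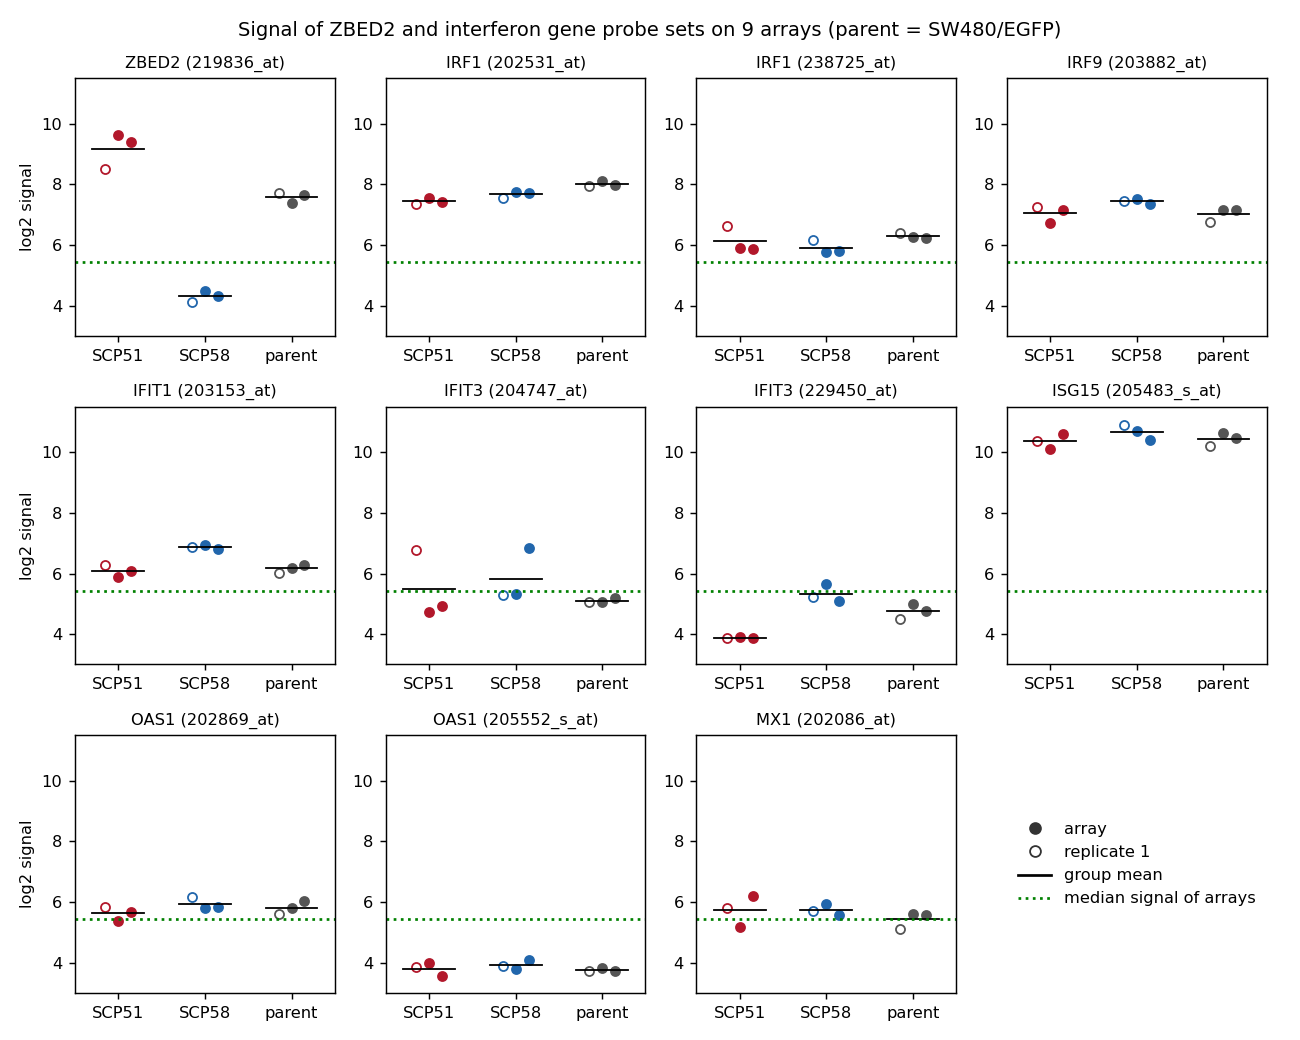
Log2 signal (y axis) of the 11 probe sets of ZBED2 and the interferon genes in SCP51, SCP58 and the parent (x axis), with 1 point per array, replicate 1 open, bars at group means and a dotted line at the median of the array medians. ZBED2 separates all 3 groups over a range of 4.86 log2 units, while most interferon genes differ by less than 1 unit.

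Of the regulators, IRF1 encodes the transcription factor that ZBED2 is reported to oppose. Its brighter probe set (202531_at) had signals of 163, 188 and 173 in SCP51, 189, 216 and 213 in SCP58, and 249, 278 and 255 in the parent. The groups did not overlap, and both clones lay below the parent. The log2 difference was -0.24 ± 0.11 between SCP51 and SCP58, -0.58 ± 0.11 between SCP51 and the parent and -0.34 ± 0.11 between SCP58 and the parent. As a description only, IRF1 passed the adjusted limit in SCP51 against the parent, but not in 11 of 19 alternatives. These were no filter, averaged probe sets (-0.37), the replicate number as a block, a fit to the 6 arrays of these groups alone, and the fits without SCP51 replicate 2 (-0.63) or 3 (-0.58), SCP58 replicate 2 or 3 (-0.58 in both) or parent replicate 1 (-0.61), 2 (-0.53) or 3 (-0.59). In order of level on this probe set, then, the parent came first for IRF1 and SCP51 for ZBED2. There SCP58 was last for ZBED2 but not for IRF1.

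The second IRF1 probe set (238725_at) was dimmer and did not share this order. Its signals were 99.5, 59.3 and 58.9 in SCP51, 71.4, 54.9 and 56.5 in SCP58, and 84.1, 77.3 and 75.9 in the parent. SCP51 overlapped both other groups. Replicate 1, the array that stood apart, was the highest of all 9, and the remaining SCP51 arrays lay below the parent and among the SCP58 arrays. SCP58 had the lowest mean on this probe set, and its arrays lay below all parent arrays. The difference between SCP51 and SCP58 was 0.22 here, of opposite sign to that of the brighter probe set, and averaging both probe sets gave -0.01 between them.

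IRF9 encodes the DNA-binding subunit of ISGF3. Its signals were 154, 105 and 144 in SCP51, 175, 184 and 165 in SCP58, and 108, 144 and 141 in the parent. All SCP58 arrays lay above all others, while SCP51 and the parent overlapped. SCP51 stood at -0.39 ± 0.17 log2 units against SCP58 and at 0.03 ± 0.17 against the parent, and SCP58 at 0.43 ± 0.17 against the parent.

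Among the response genes, IFIT1 (203153_at), whose product binds viral RNA that lacks host cap marks, had signals of 78.4, 59.6 and 68.5 in SCP51, 118, 122 and 111 in SCP58, and 65.3, 73.5 and 78.5 in the parent. SCP58 lay above both other groups, which overlapped. The log2 difference was -0.78 ± 0.13 between SCP51 and SCP58, -0.08 ± 0.13 between SCP51 and the parent and 0.70 ± 0.13 between SCP58 and the parent. Between SCP51 and SCP58 IFIT1 passed the adjusted limit, and there it did not pass when SCP51 replicate 2 was left out (-0.68), or SCP58 replicate 2 (-0.75) or 3 (-0.82), with the replicate number as a block, or in a fit to the 6 arrays of the clones alone (-0.78 in both). Between SCP58 and the parent it passed without SCP51 replicate 1 and with array weights, and in none of the other 17 alternatives. These passes are a description and no test, since the members were selected on these signals.

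IFIT3, a partner of IFIT1 that stabilises it, had a pair of probe sets, and neither passed the filter, which asked for a signal above the array median on at least 3 arrays. On 229450_at the signals were 14.5, 14.9 and 14.8 in SCP51, 37.1, 50.8 and 33.9 in SCP58, and 22.7, 32 and 27.2 in the parent. The groups did not overlap, but only SCP58 replicate 2 lay above the array median, so these are differences among dim signals. The log2 difference was -1.44 ± 0.18 between SCP51 and SCP58, -0.88 ± 0.18 between SCP51 and the parent and 0.57 ± 0.18 between SCP58 and the parent, with errors from a fit to all probe sets with 1 symbol and no filter.

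On the brighter IFIT3 probe set (204747_at) the signals were 109, 26.8 and 30.4 in SCP51, 39.2, 39.8 and 114 in SCP58, and 33.1, 33.2 and 36.5 in the parent. SCP51 overlapped both other groups, and SCP51 replicate 1 and SCP58 replicate 3 alone lay above the array median. The log2 difference was -0.33 ± 0.56 between SCP51 and SCP58, 0.38 ± 0.56 between SCP51 and the parent, of opposite sign to that on 229450_at, and 0.71 ± 0.56 between SCP58 and the parent. The IFIT3 probe sets thus did not share a group order.

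ISG15, a ubiquitin-like protein that is joined to other proteins, had signals of 1336, 1109 and 1567 in SCP51, 1918, 1688 and 1356 in SCP58, and 1197, 1607 and 1424 in the parent. All 3 groups overlapped. The log2 difference was -0.31 ± 0.18 between SCP51 and SCP58, -0.08 ± 0.18 between SCP51 and the parent and 0.23 ± 0.18 between SCP58 and the parent.

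OAS1, which makes the oligoadenylates that activate RNase L, had signals of 56.6, 41.8 and 50.9 in SCP51, 71.7, 55.4 and 56.7 in SCP58, and 48.9, 56.0 and 65.3 in the parent on its brighter probe set. All groups overlapped, with differences of -0.30 ± 0.17, -0.19 ± 0.17 and 0.11 ± 0.17 log2 units for SCP51 against SCP58, SCP51 against the parent and SCP58 against the parent. The other probe set (205552_s_at) lay between 11.7 and 17.2 on every array and did not pass the filter. MX1, a dynamin-like GTPase that blocks viruses, had signals of 56.2, 36.4 and 72.8 in SCP51, 51.9, 61.2 and 47.4 in SCP58, and 34.8, 48.7 and 47.6 in the parent. Its groups overlapped, with a log2 difference of -0.0049 ± 0.25 between SCP51 and SCP58 and of 0.30 ± 0.25 between either clone and the parent.

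Taken by comparison, 2 of the 7 members tested passed an adjusted p limit of 0.05 between SCP51 and SCP58, ZBED2 higher and IFIT1 lower in SCP51, where 4.08% of all genes did. Between SCP51 and the parent 2 passed, ZBED2 higher and IRF1 lower (2.96% of all genes). Between SCP58 and the parent ZBED2 alone passed, lower in SCP58 (0.14%, or 19 genes). Nothing is read from these counts, since the members were proposed from these comparisons. The groups did not overlap for 4 members between SCP51 and SCP58 (25.1% of all genes), for 2 between SCP51 and the parent (28.1%) and for 4 between SCP58 and the parent (17%). The median log2 difference of the 6 members other than ZBED2 was -0.30 between SCP51 and SCP58, against -0.11 for all genes. It was -0.08 between SCP51 and the parent, against -0.10, and 0.26 between SCP58 and the parent, against 0.00. The 3 comparisons share arrays, so these values are not independent of each other.

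**Figure D2:**
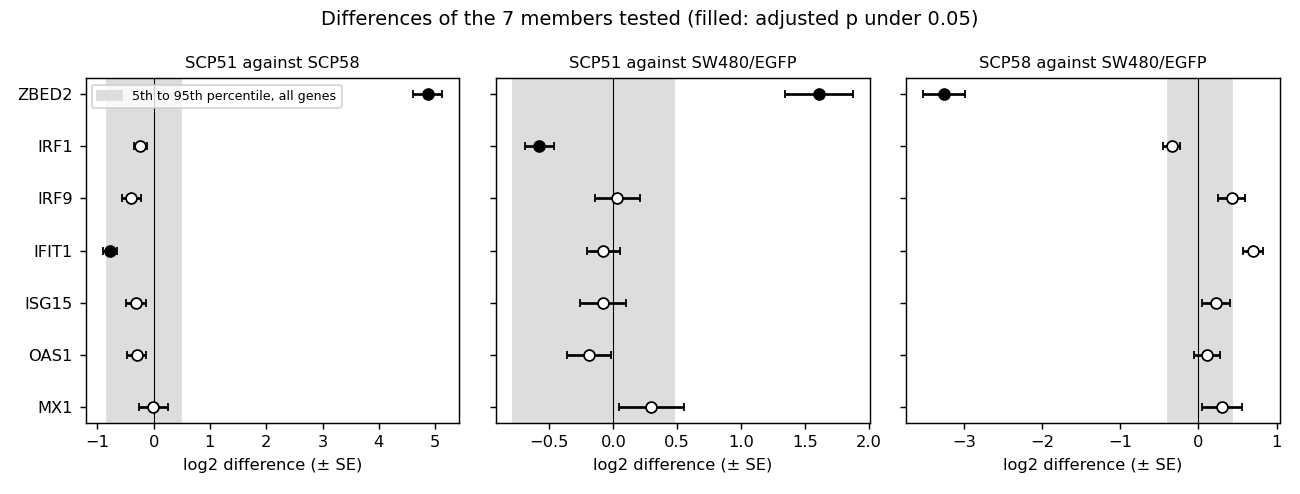
Log2 difference (x axis, points with SE) of the 7 members that passed the filter in each of the 3 comparisons, with filled points for those under an adjusted p of 0.05 and a grey band from the 5th to the 95th percentile of all genes. ZBED2 lies outside the band in every comparison, at 4.86, 1.61 and -3.26, and IFIT1 lies outside it at 0.70 between SCP58 and the parent. The members were selected on these signals, so filled points are a description.

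Other genes of the pathway were taken from lists that do not include the members. Of 43 further interferon response genes, 31 were tested, and 4 were lower and none higher in SCP51 than in SCP58 (2.6% of all genes were called lower; 10 of the 31 had an unadjusted p under 0.05). The 4 include IFIT2 and DDX60, which met the filter only with the SCP58 arrays, so nothing is read from this count. IFIT2, a further gene of the IFIT family, had signals of 15.4, 11.8 and 13.8 in SCP51, 49.4, 54.1 and 48.6 in SCP58, and 11, 16.1 and 26.4 in the parent. SCP58 lay above both other groups, as for IFIT1. Since IFIT2 was above the array median on the 3 SCP58 arrays and on no other, it entered the test only through the group in which it was high, and its values are given as a description. The helicase gene DDX60 fell by 1.15 ± 0.20 log2 units (SE). It was above the array median on the 3 SCP58 arrays, 1 parent array and no SCP51 array. DDX60 too met the filter only with the SCP58 arrays, so its values are likewise a description. PLSCR1, a scramblase gene, fell by 0.70 ± 0.14 (limma adjusted p = 0.032). PARP14, an ADP-ribosyltransferase gene, fell by 0.59 ± 0.12 (adjusted p = 0.0396). SCP51 replicate 1 did not carry these calls, and without it 5 of the list were lower, the same 4 (IFIT2 and DDX60 among them) and TRIM21.

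These calls depended on other arrays. IFIT2 could not be tested without any 1 of the SCP58 arrays or with the filter at the 65th percentile, and with no filter its other probe set (217502_at), at 34.0 to 44.3 on all arrays, was the brighter one and gave -0.18. DDX60 did not pass the limit when SCP51 replicate 2 was left out (log2 difference -1.16), and likewise SCP58 replicate 2 (-1.18) or replicate 3 (-1.02). PLSCR1 lost it without SCP51 replicate 2 (adjusted p = 0.0762), SCP58 replicates 1, 2 or 3 (0.0529, 0.124 and 0.102) or parent replicates 1 or 3 (0.0524 and 0.0687). A further PLSCR1 probe set that passed the filter (202430_s_at) stood at -0.19 with overlapping groups, and averaging the probe sets gave -0.45 (adjusted p = 0.127). The PLSCR1 call was also lost with the replicate block (0.0807) and in the fit to 6 arrays (0.0939). PARP14 lost its call without SCP51 replicates 2 or 3 (0.121 and 0.0804), SCP58 replicates 1, 2 or 3 (0.0608, 0.146 and 0.119) or parent replicates 1 or 3 (0.0635 and 0.0789). PARP14 was not called after quantile normalization (adjusted p = 0.058), after centring on the 75th percentile (0.0837), with no filter (0.0583), with the replicate block (0.0953) or in the fit to 6 arrays (0.105) either.

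The list as a whole had a median log2 difference of -0.26 between SCP51 and SCP58, against -0.11 for all genes, and 28 of 31 lay below 0, against 65% of all genes. IFIT2 and DDX60, which met the filter only with the SCP58 arrays, are in this count and median. After quantile normalization the list median was -0.22 and that of all genes -0.05, and without SCP51 replicate 1 there were 25 of 31 below 0. Against the parent the list median in SCP51 was -0.32 (all genes, -0.10) with 27 of 31 below 0, against 64% of all genes. That count was 24 after quantile normalization and 23 without SCP51 replicate 1. PLSCR1 alone was called, lower by 0.68 ± 0.14 (limma adjusted p = 0.0407; 1.58% of all genes were called lower). That call was lost in 12 of 19 alternatives, among them the omission of any 1 of the 8 arrays other than SCP51 replicate 1 (adjusted p from 0.0502 to 0.152), and also no filter (0.0543), averaged probe sets (0.111), the block (0.104) and the fit to 6 arrays (0.101). Between SCP58 and the parent the median was 0.02 (all genes, 0.00) and none of the 31 was called by limma, with 3 under an unadjusted p of 0.05.

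Among 14 tested targets of IRF1 and interferon gamma, TAP2, a subunit of the peptide transporter that loads MHC class I, fell by 0.89 ± 0.14 log2 units in SCP51 against SCP58 (limma adjusted p = 0.015) and no other was called. CD274, the gene of the checkpoint ligand PD-L1, named here after its values were seen, stood at -1.10 ± 0.28 (adjusted p = 0.0656; 0.00566 to 0.212 over 19 alternatives) and was called lower without SCP51 replicate 1 and with array weights. The signals of TAP2 were 122, 130 and 113 in SCP51, 195, 231 and 253 in SCP58, and 156, 198 and 167 in the parent. SCP51 thus lay below both other groups for TAP2. The TAP2 call was lost without SCP58 replicate 2 (adjusted p = 0.0735) or 3 (0.06) and in a fit to the 6 arrays of the clones alone (0.0529). It was also lost when the TAP2 probe sets were averaged (0.057), at a log2 difference of -0.92. The TAP2 probe sets 204769_s_at (-1.08) and 204770_at (-0.79) also had SCP51 below both other groups. A further TAP2 probe set (208428_at) stood at -0.14 with overlapping groups and did not pass the filter. The median of the 14 targets was -0.09, against -0.11 for all genes. No target was called against the parent in either clone, with 4 under an unadjusted p of 0.05 in SCP51 and 2 in SCP58.

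Receptors and kinases gave no calls. Of 13 tested genes of the receptors and their signalling, limma called none in any comparison, with 0, 1 and 3 under an unadjusted p of 0.05 for SCP51 against SCP58, SCP51 against the parent and SCP58 against the parent. JAK1, a kinase shared by interferon receptors, stood at 0.51 ± 0.18 in SCP58 against the parent (adjusted p = 0.469). Of 6 other genes of the IRF family and its binding partners none was called (0, 1 and 1 under an unadjusted p of 0.05), and IRF7 stood at -0.39 ± 0.19 between SCP51 and SCP58 (adjusted p = 0.284) and IRF3 at -0.43 ± 0.15 between SCP58 and the parent (adjusted p = 0.447). IRF2 did not pass the filter, with signals of 2.81 to 34.9. None of 8 nucleic acid sensing genes was called (1, 2 and 0 under an unadjusted p of 0.05). The adaptor gene TRAF3 came nearest, at 0.50 ± 0.12 between SCP51 and SCP58 (adjusted p = 0.0523; 0.0146 to 0.176 over 19 alternatives). It was called higher in 7 of them, namely the filter at the 65th percentile, quantile normalization, centring, 32 added, no intensity trend, array weights and the fit without SCP51 replicate 1. With array weights JAK1, IRF3 and IRF7 were called as well between SCP58 and the parent. Of the interferon genes themselves 2 of 8 listed passed the filter and none was called (0 under an unadjusted p of 0.05 in each comparison), and IFNB1 lay between 7.34 and 19.2 on every array.

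**Figure D3:**
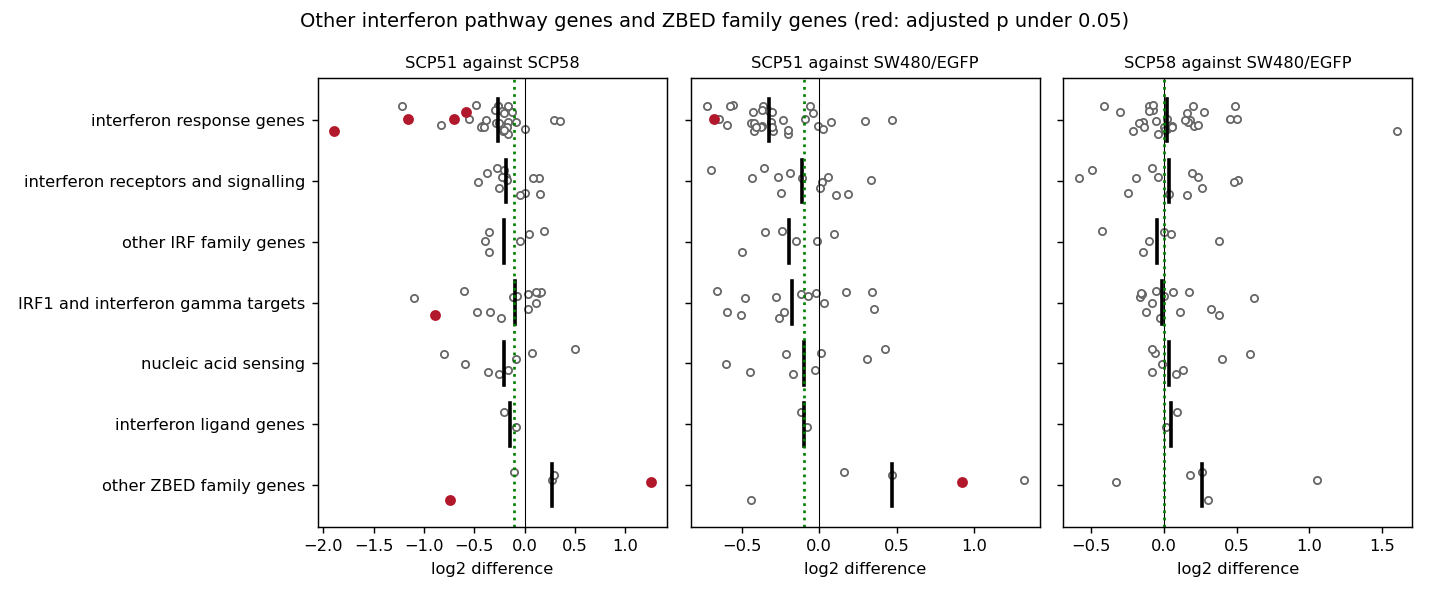
Log2 difference (x axis) of each tested gene of the pathway lists and of the other ZBED family genes (y axis) in the 3 comparisons, with red points under an adjusted p of 0.05, black bars at list medians and a dotted green line at the median of all genes. In SCP51 against SCP58 the 4 called interferon response genes and TAP2 lie left of 0, and ZBED1 lies right of it at 1.25. Of these genes IFIT2 passed the filter through SCP58 alone, and DDX60 through SCP58 and 1 parent array.

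Of 5 other ZBED family genes tested, ZBED1, which encodes a transcription factor that binds DNA replication elements, was higher in SCP51 than in SCP58 by 1.25 ± 0.09 log2 units (limma adjusted p = 0.00162; 1.48% of all genes were called higher) and than in the parent by 0.93 ± 0.09 (adjusted p = 0.00261). Its signals were 180, 168 and 178 in SCP51, 71.3, 73.6 and 75.6 in SCP58, and 97.6, 93.4 and 86.0 in the parent. On the probe set used (203043_at) ZBED1 thus had the group order of ZBED2 over a narrower range, and both calls were kept in 19 of 19 alternatives. A second ZBED1 probe set that passed the filter (1554821_a_at) also had SCP51 above both other groups. It stood at 1.16 against SCP58 and 0.96 against the parent. There SCP58 and the parent overlapped, with a log2 difference of -0.20 between them. ZBED3, a binder of axin in Wnt signalling, had the opposite order and was lower in SCP51 than in SCP58 by 0.74 ± 0.14 (a log2 difference of -0.74; adjusted p = 0.0232), and 7 of 19 alternatives did not keep that call. These include leaving out SCP51 replicate 2 (adjusted p = 0.0892), SCP58 replicate 1, 2 or 3 (0.0511, 0.102 and 0.0652) or parent replicate 3 (0.0556), the replicate block (0.0612) and the fit to 6 arrays (0.0693). Against the parent, ZBED3 was called in neither clone.

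The genes whose patterns over the 9 arrays were most like that of ZBED2 were PCDH7, RGCC, SOX4, RIPPLY1, CCDC144NL-AS1 and SEMA3A. Likeness was the root mean square difference of log2 signals centred on each gene's own mean, which was 0.99 for PCDH7, a protocadherin gene, and 1.32 to 1.4 for the other 5, where the centred values of ZBED2 themselves had a root mean square of 2.05. PCDH7 averaged a signal of 610 in SCP51, 106 in SCP58 and 450 in the parent. SOX4, a transcription factor gene, averaged 3204, 978 and 2339 in the same groups, and RGCC, a cell cycle regulator gene, 359, 81.6 and 133. In PCDH7, SOX4, RGCC and RIPPLY1 the parent mean lay between those of the clones, as in ZBED2, although for RIPPLY1 the parent arrays were spread widely and replicate 3 was the highest of all 9. In SEMA3A, a guidance cue gene, and in the antisense gene CCDC144NL-AS1 the parent lay close to SCP58, at 45.3 against 49.1 in SCP58 for SEMA3A.

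**Figure D4:**
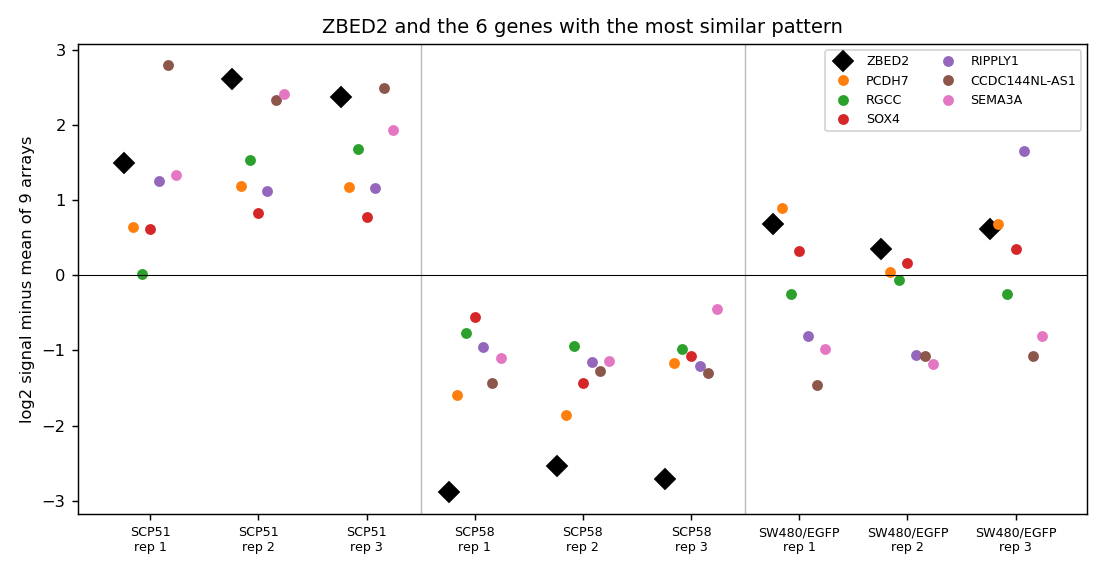
Log2 signal minus the gene's mean over 9 arrays (y axis) on each array (x axis) for ZBED2 (black diamonds) and the 6 genes with the smallest root mean square difference from it. All 7 lie below 0 on the 3 SCP58 arrays, and ZBED2 reaches lowest there.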

How the data were processed

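The 9 arrays (3 each of SCP51, SCP58 and SW480/EGFP, grouped by their titles) were Affymetrix expression arrays with 54675 probe sets. The deposited values are linear intensities, for which the submitters' processing notes name GCOS 1.4. How the authors scaled them, corrected background and summarised probes is not stated in those sources. Signals below 1 (514 values) were set to 1 and log2 was taken. The 62 control probe sets were left out. Probe sets above the array median on at least 3 arrays were kept (29166), and for each gene the one with 1 symbol and the highest mean was used. Symbols came from the platform annotation, updated through Entrez identifiers (99.9% matched; 41091 probe sets had 1 symbol, 1801 several and 11721 none). Groups were compared in limma 3.58.1 (R 4.3.3) with 1 mean per group, an intensity trend and Benjamini-Hochberg adjustment over 13598 genes, two-sided, called under 0.05. The steps were tested on simulated data. The number of arrays limits the precision.

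The members and lists were chosen with earlier results of these data known. Named were all members, up to 4 called genes with the smallest p of each list and direction, up to 2 genes of a list without a call, and the 6 genes most like ZBED2; some that this rule takes are left out. STAT2 was not analysed here. Alternatives changed the filter, scaling, pseudocount, variance model, probe set choice, arrays and replicate block. Figures were drawn with matplotlib 3.10.9.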

Additional observations from a re-analysis of the deposited data

Results flagged for a closer look

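The members and the named genes of the lists were checked for clones that departed from the parent in opposite directions. Members were checked on every probe set and list genes on the one used. In 5 of these genes every SCP51 array lay on one side of all parent arrays and every SCP58 array on the other. RGCC and SOX4, named for their likeness to ZBED2, were outside this check and had such an order as well. For RGCC the gap was narrow, with SCP51 replicate 1 at 153 and parent replicate 2 at 145. For ZBED2 the log2 difference between SCP51 and SCP58 was 4.86, for ZBED1 (203043_at) 1.25, for IFIT3 (229450_at) -1.44, for PARP14 -0.59 and for ZBED3 -0.74. On the second ZBED1 probe set (1554821_a_at) SCP58 and the parent overlapped. On the other IFIT3 probe set (204747_at) SCP51 overlapped both other groups. The opposite departures were not tested as such. IFIT3 did not pass the filter and is not among the 13598 genes tested, of which 59 (0.434%) had SCP51 above and SCP58 below the parent, and 161 (1.18%) had the reverse. The genes checked were partly named for their calls, so the 5 are not set against these shares.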

How the results depend on the processing

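The number of genes called depended on the arrays. With array weights 1527 genes were called between SCP51 and SCP58, 1356 between SCP51 and the parent and 1351 between SCP58 and the parent, against 555, 402 and 19. A fit with a replicate block gave 210, 167 and 6, and in fits to the 6 arrays of 2 groups alone 173, 184 and 37. By limma, leaving out 1 array gave 137 to 1189, 122 to 724 and 0 to 75, the highest each time without SCP51 replicate 1 and the lowest without SCP58 replicate 2, parent replicate 3 and parent replicate 1. Of the 74 pathway genes tested, 5, 1 and 0 were called in the 3 comparisons, and 9, 7 and 15 with array weights. The 5 include IFIT2 and DDX60, which met the filter only with the SCP58 arrays. Between SCP51 and SCP58 there were 3 with no filter or with the block and 2 with 6 arrays, between SCP51 and the parent 0 with the block, with 6 arrays or with averaged probe sets, and between SCP58 and the parent 1 (IFIT2) with 32 added before log2. Without 1 array the pathway counts ran from 0 to 8, 0 to 3 and 0 to 1. Counts under the other alternatives stayed within 1.5 times. With no filter, though, the 1 pathway gene called between SCP51 and the parent was higher in SCP51. In the main fit it was PLSCR1, lower in SCP51. The split of calls moved with the scaling. Calls between SCP51 and SCP58 were 201 higher and 354 lower as deposited, 319 and 302 after quantile normalization and 309 and 297 after centring; against the parent SCP51 had 187 and 215, 247 and 169, and 248 and 183. Without SCP51 replicate 3 the splits were 108 higher and 481 lower against SCP58, and 110 and 366 against the parent. The replicate numbers did not pair the arrays: deviations from group means correlated at -0.22 to 0.13 over 9 pairs of the same number and at -0.12 to 0.12 over 18 others. The PLSCR1 probe set 244315_at by itself stood at 1.12 in SCP51 against the parent, opposite to the one used, and was too dim for the filter. Where no cause is named, the cause was not tested.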

Other observations

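On the IFIT3 probe set 204747_at, SCP51 replicate 1 (109) and SCP58 replicate 3 (114) stood far above the other 7 arrays. The PLSCR1 probe set 244315_at, too dim for the filter, had its 2 highest signals on the same arrays, with 24.5, 0.833 and 1.32 in SCP51, 2.14, 2.19 and 18.3 in SCP58, and 0.678, 1.67 and 1.89 in the parent. LGALS3BP, a secreted glycoprotein gene of the interferon response list, had signals of 130, 603 and 641 in SCP51, 447, 397 and 432 in SCP58, and 334, 458 and 357 in the parent. With SCP51 replicate 1, its lowest array, left out, LGALS3BP was among the genes called higher in SCP51 against the parent.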
